A study of Mus musculus with 4 samples.

Results

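Cyclic AMP-dependent protein kinase (PKA) and its nuclear targets were examined in mouse sciatic nerve through 9 genes, taken by symbol from a table of 24062 genes. They encode the catalytic subunits (Prkaca, Prkacb), the type I regulatory subunits (Prkar1a, Prkar1b), the type II regulatory subunits (Prkar2a, Prkar2b), the A-kinase anchoring protein Akap12, and the transcription factors Creb1 and Crem. All 9 were at more than 1 CPM in all 4 libraries. PKO-NF1 nerves were P2RY14-/- and carried floxed Nf1 with Dhh Cre. NF1 nerves carried floxed Nf1 with Dhh Cre and intact P2ry14. PKO nerves were P2RY14-/- with intact Nf1, and WT nerves were C57BL/6. Every animal was on the C57BL/6 strain and 4 months old. Dhh-Cre acts in the Schwann cell lineage, so other cells of an Nf1-floxed nerve keep the gene. P2ry14 encodes a receptor for UDP-sugars that couples to inhibitory G proteins, which restrain adenylyl cyclase.

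In a resting cell PKA is a holoenzyme in which a dimer of regulatory subunits blocks the catalytic subunits, and cyclic AMP frees them. Anchoring proteins hold the holoenzyme near its substrates, and free catalytic subunits phosphorylate CREB and CREM, which bind the cyclic AMP response element (CRE) of target genes. In Schwann cells, cyclic AMP signalling through PKA helps drive the switch into myelination.

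Each genotype had 1 library, so no difference has a replicate check and each ratio compares 2 libraries. The labels call the NF1 library a repeat and give no batch, so a batch and the genotype cannot be told apart in its comparisons. They do not say how many animals a library holds. Total counts lay between 14111201 and 20362685. Levels are CPM, counts relative to the TMM-scaled library size, and 3 counts came to between 0.153 and 0.183 CPM. Ratios carry a 95% interval that covers counting error only. Higher and lower, where genes are counted, mean a difference of 2-fold or more whose interval leaves out 1. The libraries also differed in tissue makeup. Summed over 30 skeletal muscle markers, CPM was 401 in PKO-NF1, 68000 in NF1, 206 in PKO and 1240 in WT. Of these markers 28 were higher in NF1 than in WT and none lower, and Myh7, Ampd1 and Myot were at 0 in at least 1 library. All 11 Schwann cell markers used, such as Sox10, were present in every library, with summed CPM of 15400, 7300, 24800 and 17700 in the same order. Xist had 9, 39699, 4948 and 10304 counts in that order, and the Y-linked gene Ddx3y had 842, 0, 396 and 813. Eif2s3y, also Y-linked, had 1190, 0, 419 and 566. These counts read as female for the NF1 library and as male for PKO-NF1, while PKO and WT carried both kinds of transcript. Sex and genotype therefore cannot be told apart in PKO-NF1 vs NF1. Each pair that differs in Nf1 set a library of 1 sex against a mixed one. The part of sex in any difference was not tested. P2ry14 was at 10.5 CPM in PKO-NF1 nerves and 65.4 CPM in NF1 nerves, and at 10.9 CPM in PKO nerves and 37.5 CPM in WT nerves. Nf1 was at 20.4 CPM in PKO-NF1 nerves, 63.6 CPM in NF1 nerves, 41.1 CPM in PKO nerves and 72.5 CPM in WT nerves, which puts the NF1 nerves close to WT nerves by this count over the whole gene. In whole nerve, fewer cells of a type and less RNA per cell cannot be told apart.

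The sequences before the start sites of 3 regulatory subunit genes are shown because Prkar2a and Prkar2b hold the widest differences between libraries and because CREB binds the CRE. They come from RefSeq on GRCm38.p6, each from 250 bases before to 50 bases after an annotated start. Capitals mark TGACG or its reverse CGTCA, the core of the CRE, and TGACGTCA, the full palindrome, in which both cores overlap.
Prkar2a (chr9:108691893-108692192, plus strand): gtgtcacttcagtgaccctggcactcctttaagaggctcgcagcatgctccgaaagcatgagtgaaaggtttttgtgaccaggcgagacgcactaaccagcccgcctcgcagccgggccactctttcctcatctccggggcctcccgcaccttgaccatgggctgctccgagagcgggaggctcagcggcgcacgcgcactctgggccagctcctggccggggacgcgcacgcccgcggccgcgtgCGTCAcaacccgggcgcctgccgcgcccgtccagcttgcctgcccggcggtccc
Prkar2b (chr12:32061228-32061527, minus strand): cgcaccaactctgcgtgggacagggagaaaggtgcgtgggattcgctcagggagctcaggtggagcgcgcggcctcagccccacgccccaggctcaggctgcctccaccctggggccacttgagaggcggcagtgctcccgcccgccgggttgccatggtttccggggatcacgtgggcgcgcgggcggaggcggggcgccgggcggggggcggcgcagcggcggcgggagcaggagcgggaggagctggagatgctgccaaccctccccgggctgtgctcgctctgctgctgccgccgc
Prkar1a (chr11:109650699-109650998, plus strand): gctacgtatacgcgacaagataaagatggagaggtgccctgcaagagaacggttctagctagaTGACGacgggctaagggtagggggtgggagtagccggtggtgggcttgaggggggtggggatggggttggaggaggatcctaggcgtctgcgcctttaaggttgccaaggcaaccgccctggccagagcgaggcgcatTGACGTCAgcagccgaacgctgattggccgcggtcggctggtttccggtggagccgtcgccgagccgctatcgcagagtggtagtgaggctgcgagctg
The Prkar1a sequence holds 1 full palindrome and a further core, the Prkar2a sequence holds a single core, and neither motif occurs in this Prkar2b window. Prkar1a has 6 annotated start sites, and the sequence shown is from 1 of the 2 whose windows hold the palindrome. In all, 7 of the 9 genes had RefSeq entries, with 20 start sites between them. The full palindrome was in 2 of the 20, both of Prkar1a and sharing 213 bases, against 1.79% of 32851 mouse promoters. A core on either strand was in 7 of the 20, against 20.8% of all promoters. These matches describe letters, and binding was not measured.

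The catalytic subunits differed little between genotypes. Prkaca (ENSMUSG00000005469; GRCm38 chr8:83972993-83996443, plus strand), which encodes the alpha catalytic subunit, had 65.5 CPM in PKO-NF1 nerves, 68.2 CPM in NF1 nerves, 76.4 CPM in PKO nerves and 70.4 CPM in WT nerves. Prkacb (ENSMUSG00000005034; chr3:146729574-146812990, minus strand), the beta form, had 72.7, 65.3, 81.8 and 70.1 CPM in the same order. Both genes were highest in PKO, and the highest library exceeded the lowest by 1.17-fold for Prkaca and 1.25-fold for Prkacb. The median gene of 14684 varied 2.04-fold between its highest and lowest library. Prkaca was 1.17-fold lower in PKO-NF1 nerves than in PKO nerves (interval 1.08 to 1.26), and Prkacb 1.13-fold lower (1.04 to 1.22). In NF1 against WT both intervals contained 1. Per kilobase of longest transcript Prkaca was the more abundant, at 63.3% of catalytic CPM per kb in PKO-NF1, 66.6% in NF1, 64.1% in PKO and 65.7% in WT.

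**Figure D1:**
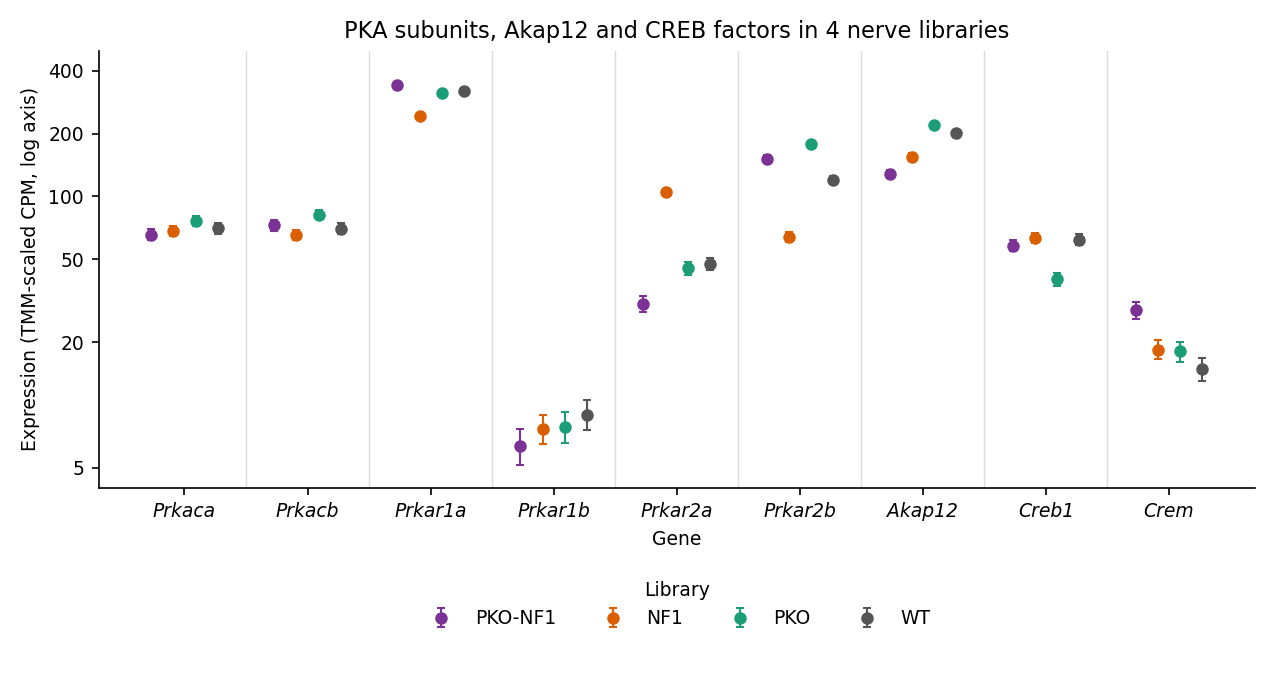
Level of each gene in the 4 libraries as TMM-scaled CPM on a log axis, 1 point per library with its 95% Poisson counting interval. Prkar2a is highest in NF1 at 105 CPM and Prkar2b lowest there at 64.0 CPM, while the catalytic subunits lie between 65.3 and 81.8 CPM in all libraries.

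Among type I regulatory subunits, Prkar1a was the most abundant of the 9 genes and Prkar1b the least. Prkar1a (ENSMUSG00000020612; chr11:109649405-109669656, plus strand), the broadly expressed RI-alpha subunit, had 344 CPM in PKO-NF1 nerves, 242 CPM in NF1 nerves, 313 CPM in PKO nerves and 321 CPM in WT nerves. The NF1 library was the low one and the others lay within 1.10-fold of each other. Prkar1a was 1.33-fold lower in NF1 nerves than in WT nerves (1.28 to 1.38) and 1.42-fold higher in PKO-NF1 nerves than in NF1 nerves (1.37 to 1.48). Between PKO-NF1 and PKO it was 1.10-fold higher (1.06 to 1.14), a direction that turned when trends over transcript length and GC content were removed (log2 ratio 0.14 before and -0.19 after). Prkar1b (ENSMUSG00000025855; chr5:139017306-139150001, minus strand), the RI-beta subunit best known from neurons, had 6.33 CPM in PKO-NF1 nerves, 7.63 CPM in NF1 nerves, 7.84 CPM in PKO nerves and 8.93 CPM in WT nerves. It rested on 104 to 152 counts, and in each of the 4 comparisons its interval contained 1, so no difference in Prkar1b was detectable at this depth. Neuronal markers, 16 genes of which Syt1, Th, Chat and Scn10a were at 0 in at least 1 library, summed to 240 CPM in PKO-NF1 nerves, 98.0 CPM in NF1 nerves, 316 CPM in PKO nerves and 130 CPM in WT nerves.

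The type II regulatory subunits held the widest differences, and in the NF1 library they went opposite ways. Prkar2a (ENSMUSG00000032601; chr9:108689314-108750436, plus strand), the RII-alpha subunit, had 30.4 CPM in PKO-NF1 nerves, 105 CPM in NF1 nerves, 45.3 CPM in PKO nerves and 47.4 CPM in WT nerves. NF1 alone was high, PKO and WT were close (1.05-fold lower in PKO, interval 0.947 to 1.15), and PKO-NF1 was lowest. Prkar2a was 2.21-fold higher in NF1 nerves than in WT nerves (2.04 to 2.40) and 3.45-fold lower in PKO-NF1 nerves than in NF1 nerves (3.13 to 3.81). In PKO-NF1 against PKO it was 1.49-fold lower (1.33 to 1.67), the other direction from NF1 against WT. On the log2 scale the PKO-NF1 vs PKO ratio minus the NF1 vs WT ratio was -1.72 (-1.92 to -1.52, counting error only). Scaled by total counts alone, the NF1 vs WT log2 ratio of Prkar2a was 0.92 in place of 1.15, short of 2-fold.

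Prkar2b (ENSMUSG00000002997; chr12:31958476-32061296, minus strand), the RII-beta subunit that adipose tissue and brain express strongly, had 152 CPM in PKO-NF1 nerves, 64.0 CPM in NF1 nerves, 178 CPM in PKO nerves and 120 CPM in WT nerves. Here NF1 was the low library, and both P2RY14-/- libraries were above WT. Prkar2b was 1.87-fold lower in NF1 nerves than in WT nerves (1.75 to 2.01), short of 2-fold, and 2.38-fold higher in PKO-NF1 nerves than in NF1 nerves (2.22 to 2.55). It was also 1.49-fold higher in PKO nerves than in WT nerves (1.41 to 1.57) and 1.17-fold lower in PKO-NF1 nerves than in PKO nerves (1.11 to 1.23). Removing the length and GC trends moved its NF1 vs WT log2 ratio to -1.10 from -0.91, past 2-fold, and scaling by total counts alone gave -1.13.

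Markers of other tissue also differed between these libraries. The 15 adipocyte markers, none of them at 0, summed to 14900 CPM in PKO-NF1 nerves, 4720 CPM in NF1 nerves, 20400 CPM in PKO nerves and 8230 CPM in WT nerves. This sum had the same order of libraries as Prkar2b. Taken singly, only Adipoq, Cfd and Lpl of that list had the whole order. Plin1 was highest in WT nerves (215 CPM) and Lep in PKO-NF1 nerves (152 CPM), and Fabp4 was lowest in WT nerves (1320 CPM). The neuronal marker sum had the Prkar2b order too, at 240 CPM in PKO-NF1, 98.0 in NF1, 316 in PKO and 130 in WT. The skeletal muscle sum was highest in NF1 nerves, at 68000 CPM, as Prkar2a was. That sum was 401 CPM in PKO-NF1 nerves and 206 CPM in PKO nerves, where Prkar2a was at 30.4 CPM and 45.3 CPM. The part of these tissues in the levels of Prkar2a and Prkar2b was not tested. Without the NF1 library, Prkar2a ranged 1.56-fold and Prkar2b 1.49-fold over the other libraries.

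**Figure D2:**
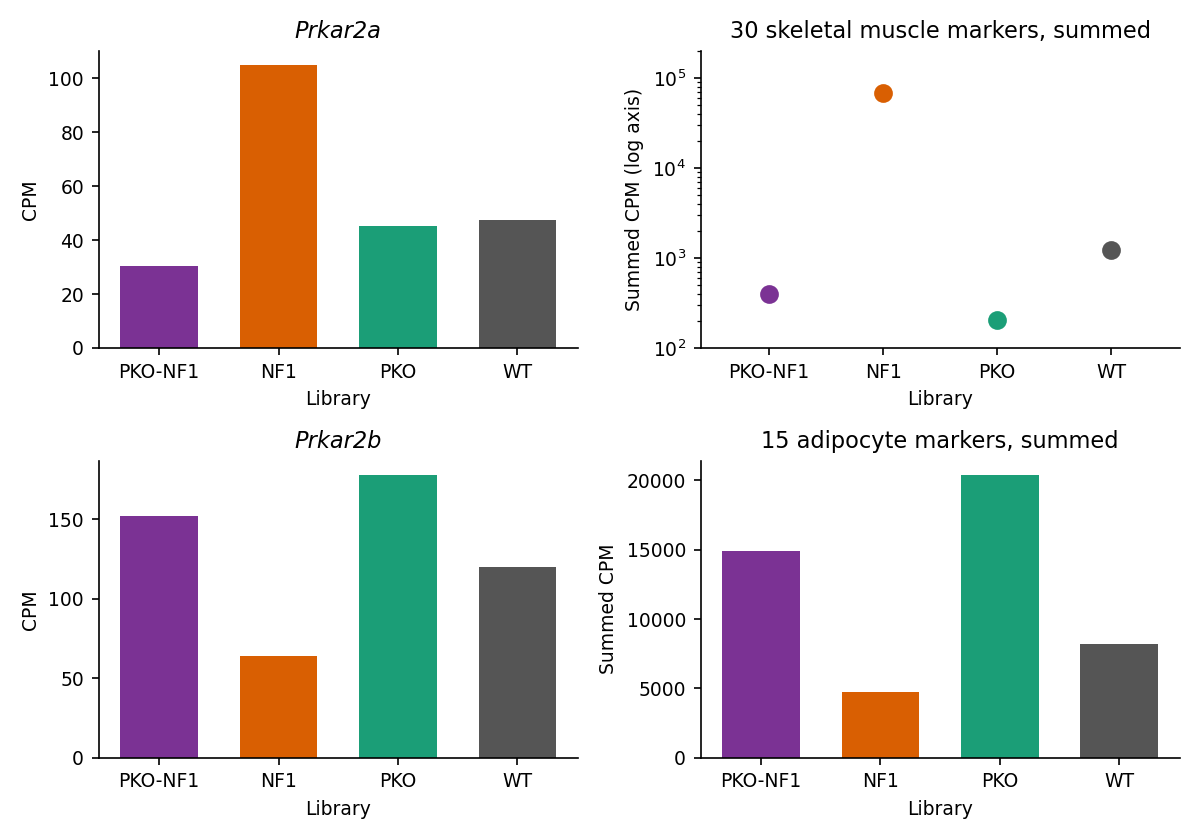
Left, CPM of Prkar2a and Prkar2b in each library, as bars from 0. Right, summed CPM of 30 skeletal muscle markers on a log axis and of 15 adipocyte markers as bars. Prkar2b and the adipocyte sum share 1 order of libraries, lowest in NF1 nerves at 64.0 and 4720 CPM and highest in PKO nerves at 178 and 20400 CPM, and the muscle sum reaches 68000 CPM in NF1 nerves. Most single adipocyte markers do not have this whole order. The neuronal marker sum, not drawn, has the Prkar2b order too.

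The makeup of the regulatory pool can be read within each library, where library scaling cancels. Prkar1a supplied 64.6% of regulatory CPM per kb in PKO-NF1, 61.6% in NF1, 57.8% in PKO and 65.3% in WT. Prkar2b supplied 29.8%, 17.0%, 34.3% and 25.4% in that order, and Prkar2a 4.04%, 18.9%, 5.93% and 6.83%. The type II share as a whole was between 32.2% and 40.2%. Prkar2b supplied most of it in PKO-NF1, PKO and WT, and in NF1 the type II genes were close. Type II to type I counts were 1.33-fold higher in NF1 nerves than in WT nerves (1.25 to 1.42). They were 1.34-fold lower in PKO-NF1 nerves than in PKO nerves (1.26 to 1.42) and 1.37-fold higher in PKO nerves than in WT nerves (1.29 to 1.46). Prkar2b exceeded Prkar2a 7.37-fold per kb in PKO-NF1, 5.78-fold in PKO and 3.72-fold in WT, whereas in NF1 the ratio was 0.898. As a ratio of count ratios, Prkar2b to Prkar2a was 4.14-fold lower in NF1 nerves than in WT nerves (3.72 to 4.62), and 8.21-fold higher in PKO-NF1 nerves than in NF1 nerves (7.28 to 9.27). In PKO-NF1 against PKO it was 1.27-fold higher (1.12 to 1.45), and the direction turned with the trends removed (log2 0.35 before and -0.21 after).

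Regulatory transcripts exceeded catalytic ones in every library. The ratio of summed CPM per kb was 3.33 in PKO-NF1, 2.48 in NF1, 2.94 in PKO and 2.97 in WT, with NF1 the lowest and PKO-NF1 the highest. Catalytic to regulatory counts were 1.13-fold higher in NF1 nerves than in WT nerves (1.06 to 1.20) and 1.12-fold lower in PKO-NF1 nerves than in PKO nerves (1.05 to 1.19). The sign of the second turned with the trends removed (log2 -0.16 before and 0.13 after). In PKO against WT the interval contained 1. Prkaca to Prkacb counts differed by at most 1.16-fold in any comparison as counted (PKO-NF1 lower than NF1, 1.03 to 1.30).

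**Figure D3:**
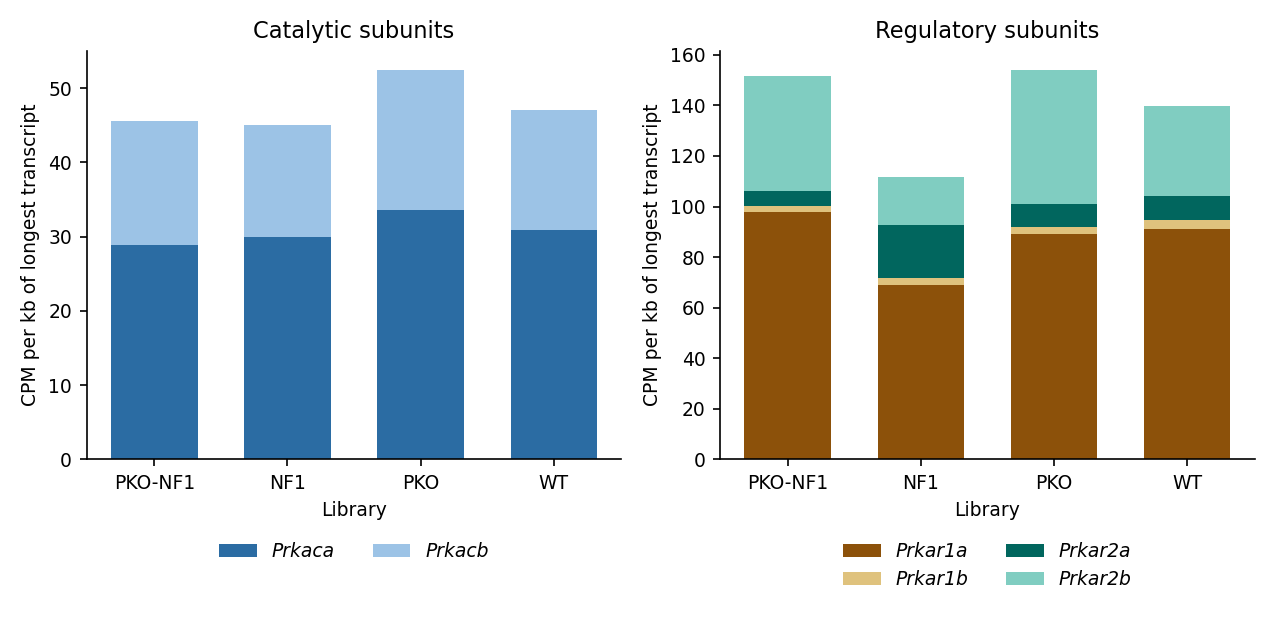
Stacked CPM per kb of longest transcript for the catalytic (left) and regulatory (right) subunits in each library. Catalytic bars total between 45.0 and 52.4, and the NF1 regulatory bar is the lowest, at 112 against 140 in WT, with the largest Prkar2a segment.

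The anchoring protein Akap12 (ENSMUSG00000038587; chr10:4266380-4359470, plus strand), also known as gravin, is a scaffold for PKA and protein kinase C. Akap12 had 128 CPM in PKO-NF1 nerves, 155 CPM in NF1 nerves, 221 CPM in PKO nerves and 202 CPM in WT nerves. Both Nf1-floxed libraries were below both libraries with intact Nf1. It was 1.72-fold lower in PKO-NF1 nerves than in PKO nerves (1.63 to 1.82) and 1.30-fold lower in NF1 nerves than in WT nerves (1.24 to 1.36). These ratios depended on the correction for length and GC content. With the trends removed the log2 ratio went to -0.24 from -0.79 for PKO-NF1 vs PKO, to 0.07 from -0.38 for NF1 vs WT, and to 0.20 from -0.28 for PKO-NF1 vs NF1. The sum of 10 endothelial markers, none at 0, was lower in the same libraries, at 563 CPM in PKO-NF1, 321 in NF1, 923 in PKO and 758 in WT. Of that list, Emcn was highest in PKO-NF1, at 54.6 CPM against 41.2 CPM in PKO and 28.7 CPM in WT. Egfl7 was also higher in PKO-NF1 than in WT, at 128 against 96.7 CPM. The Schwann cell sum was lower in both Nf1-floxed libraries too, at 15400 CPM in PKO-NF1 and 7300 in NF1, against 24800 in PKO and 17700 in WT. The part of either cell type in the Akap12 levels was not tested.

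Creb1 and Crem, the nuclear end of the pathway, took different patterns. Creb1 (ENSMUSG00000025958; chr1:64532645-64604548, plus strand), an activator phosphorylated by PKA, had 58.1 CPM in PKO-NF1 nerves, 63.2 CPM in NF1 nerves, 40.0 CPM in PKO nerves and 62.1 CPM in WT nerves. Only PKO stood apart, below the rest. Creb1 was 1.55-fold lower in PKO nerves than in WT nerves (1.41 to 1.71) and 1.45-fold higher in PKO-NF1 nerves than in PKO nerves (1.32 to 1.60), and these share the PKO library. Once the trends were removed the log2 ratio of PKO vs WT went to -0.30 from -0.63, and that of PKO-NF1 vs NF1 turned, to 0.41 from -0.12.

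Crem (ENSMUSG00000063889), whose products include activators and the inducible repressor ICER, had 28.4 CPM in PKO-NF1 nerves, 18.4 CPM in NF1 nerves, 18.1 CPM in PKO nerves and 14.8 CPM in WT nerves. PKO-NF1 was highest and WT lowest, with NF1 and PKO close together between them. It was 1.57-fold higher in PKO-NF1 nerves than in PKO nerves (1.36 to 1.82), 1.54-fold higher than in NF1 (1.34 to 1.77) and 1.25-fold higher in NF1 nerves than in WT nerves (1.06 to 1.47). Without the trends these log2 ratios became 0.07 from 0.65, 0.36 from 0.63 and -0.01 from 0.32. Gene totals do not separate activator from repressor transcripts. The gene overlaps Gm6225 on the opposite strand, which had at most 3 counts in a library. Per kb, Creb1 to Crem was 0.717 in PKO-NF1, 1.20 in NF1, 0.776 in PKO and 1.47 in WT. The Crem to Creb1 count ratio was 1.90-fold higher in PKO nerves than in WT nerves (1.56 to 2.31) and 1.68-fold higher in PKO-NF1 nerves than in NF1 nerves (1.42 to 1.98). The log2 values without the trends were 0.42 from 0.93 and -0.05 from 0.75.

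**Figure D4:**
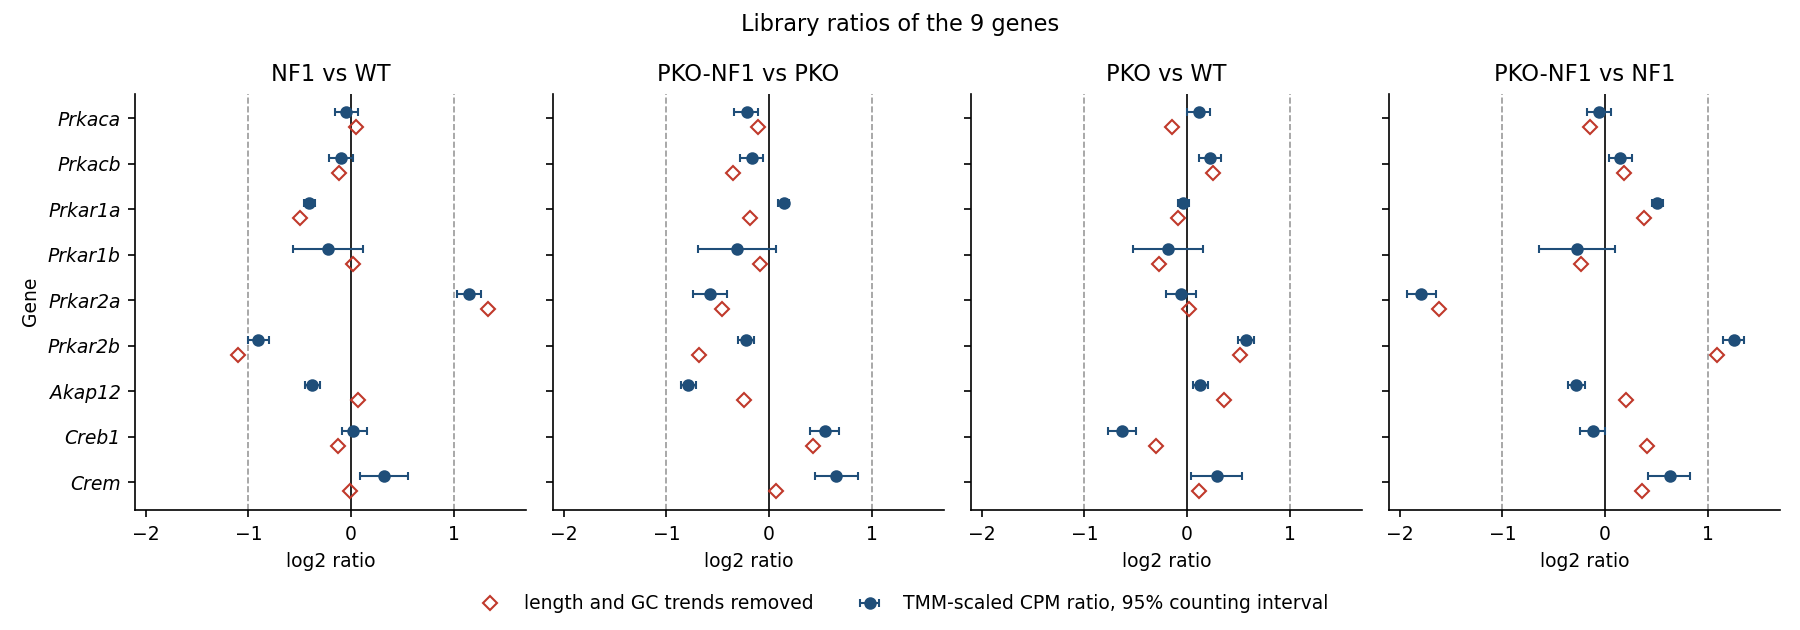
Log2 ratio of each gene in the 4 comparisons, with filled points for TMM-scaled CPM and 95% counting intervals and open diamonds after removal of the length and GC trends. Dashed lines mark 2-fold; Prkar2a lies beyond them at 1.15 for NF1 vs WT, with -1.79 for PKO-NF1 vs NF1, and Prkar2b at 1.25 in PKO-NF1 vs NF1.

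By the 2-fold rule few of the 9 genes were called, and the shares were near those of all genes. In NF1 vs WT, 1 of 9 was higher (Prkar2a) and none lower, against 10.6% higher and 6.09% lower of 14684 genes. In PKO-NF1 vs PKO none was called in either direction, against 5.09% higher and 9.92% lower. In PKO vs WT none was called, against 10.2% higher and 5.1% lower. In PKO-NF1 vs NF1, where the sex-linked counts differed too, 1 was higher (Prkar2b) and 1 lower (Prkar2a), against 7.81% and 14%. The median log2 ratio of the 9 genes was -0.10, -0.22, 0.12 and -0.06 in these comparisons, against 0.01, -0.01, -0.06 and -0.02 for all genes. Between the highest and the lowest library 2 of 9 differed at least 2-fold, against 51.8% of genes, and without the NF1 library none did, against 39.9%. The comparisons share libraries with each other and are not independent.

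An additive edgeR quasi-likelihood model over the 4 libraries left each gene 1 residual degree of freedom. That degree of freedom is the interaction, not a spread between animals. The model moderates dispersion over all genes, so the p-values and SE of a gene rest in part on spread borrowed from other genes. At Benjamini-Hochberg adjusted p under 0.05 it called 0 of 9 at the Nf1 term, against 0.0% of 14088 genes. None of the 9 had an unadjusted p under 0.05 there, against 20.9% of genes, and the DESeq2 Wald test also called 0. The smallest edgeR adjusted p at that term was 0.285, for Crem (log2 change 0.49, SE 0.225). At the P2ry14 term 0 of 9 were called, against 0.0497% of genes, and 1 had an unadjusted p under 0.05, against 25.1%. That gene was Prkar2b, with a log2 change of 0.91 (SE 0.294), an edgeR adjusted p of 0.167 and a DESeq2 adjusted p of 0.134. It was higher in both P2RY14-/- libraries than in their partners. Prkar2a had an Nf1-term change of 0.29 (SE 0.447), where its pairs went opposite ways.

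Inhibitors of the kinase were also measured. Of 4 genes, the inhibitors Pkia, Pkib and Pkig and the PKA-related kinase Prkx, 3 were higher in NF1 than in WT and none lower, against 10.6% and 6.09% of all genes. In PKO-NF1 vs PKO 2 were higher, against 5.09%, and 1 was with the trends removed, against 427 of 14684 genes. Pkia, the inhibitor abundant in skeletal muscle, had 528 CPM in NF1 nerves against 49.1 CPM in WT nerves (10.8-fold higher, 10.0 to 11.6), and 77.9 CPM in PKO-NF1 nerves against 31.0 CPM in PKO nerves (2.51-fold higher, 2.27 to 2.78). The second of these was a log2 ratio of 0.61, below 2-fold, with the trends removed. Pkia was high in the library with the highest muscle marker sum, and the part of muscle was not tested. Pkib was near 1 to 5 CPM, at 4.22 CPM in NF1 nerves against 1.41 CPM in WT nerves (2.99-fold, 1.88 to 4.93) and 4.99 CPM in PKO-NF1 nerves against 1.69 CPM in PKO nerves (2.95-fold, 1.92 to 4.64). Pkig was at 169 CPM in NF1 nerves and 148 CPM in PKO nerves, where Nf1 is intact, against 69.2 CPM in WT nerves, 2.44-fold and 2.14-fold higher.

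Among 25 other anchoring genes listed, 20 reached 1 CPM, and those higher in NF1 are known from striated muscle. Against WT, 3 were higher in NF1 and none lower, where 10.6% of all genes were higher and 6.09% lower. Cmya5 (myospryn) had 769 CPM in NF1 nerves against 35.0 CPM in WT nerves, Pde4dip (myomegalin) 617 CPM against 74.5 CPM, and Akap6, which anchors PKA at the nuclear envelope of muscle cells, 11.4 CPM against 3.76 CPM. In PKO-NF1 vs PKO, 1 was higher (Rab32, 2.11-fold, 1.89 to 2.37) and 3 were lower, among them Cmya5 and Akap6, against 5.09% and 9.92%. After removal of the trends none was higher and 2 were lower, against 427 and 753 of 14684 genes. In PKO-NF1 vs NF1 5 were lower, against 14% of all genes, and none higher. With the trends removed 3 were lower there, against 1520 of 14684 genes. In PKO vs WT 2 were lower, Cmya5 and Map2, against 5.1%.

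Of 19 coactivators and relatives of CREB, 8 were lower and 1 higher in PKO-NF1 than in PKO, against 9.92% and 5.09% of all genes, with a median log2 ratio of -0.93 against -0.01 for all genes. Crtc3 and Crtc1, CREB-regulated transcription coactivators, were at 17.8 CPM in PKO-NF1 nerves against 63.8 CPM in PKO nerves (3.59-fold lower, 3.15 to 4.09) and at 11.0 CPM against 31.9 CPM (2.89-fold lower, 2.44 to 3.44). Sik2, a kinase that holds the coactivators in the cytoplasm, was 2.53-fold lower (2.21 to 2.90). Atf1, the third member of the CREB family, was 2.01-fold higher (1.79 to 2.24). Removing the trends left 3 lower and none higher, against 753 and 427 of 14684 genes, and a median of -0.39 against -0.07 for all genes. Crtc1 and Atf1 were then short of 2-fold, with log2 ratios of -0.45 and 0.46. In NF1 vs WT 1 was higher (Nfil3) and 1 lower (Crtc3, 2.35-fold, 2.11 to 2.61), against 10.6% and 6.09% of all genes. In PKO vs WT 1 was lower, against 5.1%, and in PKO-NF1 vs NF1 7 were lower, against 14%. After the trends were removed Crtc3 was short of 2-fold in NF1 vs WT (log2 ratio -0.61), which left 0 lower there, against 651 of 14684 genes. In PKO-NF1 vs NF1 2 were then lower, against 1520.

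Genes that CREB is known to induce were mixed. Of 28 listed, 24 reached 1 CPM. In NF1 vs WT 2 were higher and 6 lower, against 10.6% and 6.09% of all genes, and in PKO-NF1 vs PKO likewise 2 and 6, against 5.09% and 9.92%. With the trends removed there were 2 higher and 3 lower in NF1 vs WT, against 1138 and 651 of 14684 genes. In PKO-NF1 vs PKO there were then 1 higher and 2 lower, against 427 and 753. Gadd45a was 3.45-fold higher in NF1 nerves than in WT nerves (2.95 to 4.06), and the clock gene Per2 4.90-fold lower (4.25 to 5.68). Fos, the immediate early transcription factor, was at 16.8 CPM in PKO-NF1 nerves against 6.55 CPM in PKO nerves, and at 6.55 CPM in PKO nerves against 24.9 CPM in WT nerves. The gluconeogenic enzyme Pck1, which adipocytes also express, was at 117 CPM in PKO-NF1 nerves against 254 CPM in PKO nerves and at 39.0 CPM in NF1 nerves against 164 CPM in WT nerves. Rgs2, which limits G protein signalling, was higher with P2ry14 loss in both pairs, at 81.1 CPM in PKO nerves against 33.3 CPM in WT nerves (2.44-fold, 2.21 to 2.69) and 125 CPM in PKO-NF1 nerves against 40.7 CPM in NF1 nerves (3.07-fold, 2.83 to 3.34). The medians were -0.26 in NF1 vs WT, 0.09 in PKO-NF1 vs PKO, -0.33 in PKO vs WT and -0.03 in PKO-NF1 vs NF1.

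Upstream of PKA, 20 of 21 listed receptor and G protein genes were measured at 1 CPM or more. In NF1 vs WT none was higher and 3 were lower, against 10.6% and 6.09% of all genes, and PKO-NF1 vs PKO gave the same counts, against 5.09% and 9.92%. Gnal and Gnao1, G protein alpha subunits best known from neurons, were among the lower genes in both. Removal of the trends left 2 lower in NF1 vs WT, against 651 of 14684 genes, and for PKO-NF1 vs PKO it left 1, against 753. Gnao1 then fell short of 2-fold in both, with log2 ratios of -0.50 and -0.48, and Gnal in PKO-NF1 vs PKO, at -0.86. Gnas, the stimulatory alpha subunit and the most abundant of the list, was at 944 CPM in NF1 nerves against 755 CPM in WT nerves and at 1010 CPM in both PKO-NF1 and PKO. Of 11 other cyclic AMP effectors 9 reached 1 CPM. The exchange factor Rapgef3 (EPAC1) was 2.39-fold lower in PKO-NF1 nerves than in PKO nerves (2.16 to 2.66), and 1.95-fold lower in NF1 nerves than in WT nerves (1.79 to 2.12). With the trends removed, the log2 ratios of Rapgef3 were -0.73 and -0.43. The popeye-domain genes Bves, Popdc2 and Popdc3, expressed in striated muscle, were higher in NF1 than in WT, with 340 counts of Bves in NF1 nerves against 0 in WT nerves. Of 13 genes for phosphatases and their regulators 3 were higher and 1 lower in NF1 vs WT, against 10.6% and 6.09% of all genes, with none called for PKO-NF1 vs PKO, against 5.09% and 9.92%. With the trends removed 1 was higher and 1 lower in NF1 vs WT, against 1138 and 651 of 14684 genes. Ppp1r1a, inhibitor of protein phosphatase 1 once PKA phosphorylates it, was at 101 CPM in NF1 nerves and 102 CPM in PKO nerves against 21.2 CPM in WT nerves.

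For the 3 genes with the widest range, the genes of most similar pattern over the 4 libraries were sought among 10804 genes at 5 CPM or more in each. The measure was the root mean square difference of centred log2 CPM. Nearest to Prkar2b was Abcd2, a peroxisomal transporter of fatty acids that adipose tissue expresses, at 0.033, with 119 CPM in PKO-NF1 nerves, 49.2 CPM in NF1 nerves, 131 CPM in PKO nerves and 92.4 CPM in WT nerves. It was followed by Acta2, the smooth muscle actin gene of the pericyte and smooth muscle list, at 0.061, with 107 CPM in PKO-NF1 nerves, 49.2 CPM in NF1 nerves, 124 CPM in PKO nerves and 83.7 CPM in WT nerves. The sum of that list was highest in NF1 nerves, at 2130 CPM, of which Des alone gave 1550 CPM. Des was at 20.5 CPM in PKO-NF1 nerves, 23.8 CPM in PKO nerves and 31.3 CPM in WT nerves. Nearest to Prkar2a were 2310061I04Rik at 0.049 and Slc25a25, a mitochondrial carrier, at 0.050. Nearest to Crem were Snx2 at 0.009 and Anxa3 at 0.010. With 4 libraries many genes share a pattern, and these are descriptions.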

How the data were processed

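Sciatic nerve RNA was sequenced, 1 library for each genotype. Nerves had been frozen on dry ice, Trizol was used for extraction and a TruSeq RNA kit for the libraries, per the labels' protocols. The authors deposited whole-number counts for 24062 gene symbols. The build mm10 and the tools HISAT2 (2.0.5), featureCounts (1.5.2) and FastQC (0.11.7) are listed in the submitters' processing notes. Strandedness, the gene annotation and the treatment of multi-mapping reads are not stated in these sources.

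Counts were scaled with edgeR 4.0.16 TMM factors (0.925 in PKO-NF1, 1.03 in NF1, 0.87 in PKO and 1.21 in WT). Of all genes, 14684 reached 1 CPM in at least 1 library. Ratios carry exact conditional (Clopper-Pearson) 95% intervals. Ratios of count ratios carry exact conditional intervals, and differences of log2 ratios Poisson-based intervals. Intervals cover counting error alone, since each genotype had 1 library. PCR reads lacking molecular identifiers are not separate molecules, so the intervals may be too narrow even for counting error. The additive model (edgeR glmQLFit and glmQLFTest, terms for Nf1 and P2ry14, 14088 genes at 1 CPM in at least 2 libraries) was compared with DESeq2 1.42.0. Splines with 4 degrees of freedom in log10 length and GC content of the longest GENCODE M21 transcript (GRCm38; 98.5% of symbols matched) gave the trends, fitted per comparison outside the muscle markers and centred on the median gene. Steps were tested on simulated data.

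The 9 genes, the 7 pathway lists, the 9 marker lists and the naming rule were chosen with earlier results of these data known. All 9 genes are named. A further entry of the Schwann cell list is not reported here, and the sum leaves it out. From each pathway list up to 3 genes per direction and comparison, ranked by the nearer bound of the interval, and the 2 most abundant could be named. Marker lists for nerve fibroblast and perineurial cells summed to between 8430 and 13600 CPM, macrophages to between 1670 and 3760 CPM, pericytes and smooth muscle to between 634 and 2130 CPM, and red cells to between 4.58 and 126 CPM over the libraries, with 5 of 6 red cell genes at 0 in each.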

Additional observations from a re-analysis of the deposited data

Results flagged for a closer look

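Prkar2a went in opposite directions in the pairs that differ in Nf1. Its log2 ratio was 1.15 for NF1 vs WT, while PKO-NF1 vs PKO gave -0.58, with both counting intervals away from 0. With 1 library per genotype the difference was not tested. The skeletal muscle marker sum was 68000 CPM in NF1 nerves against 1240 CPM in WT nerves, and 401 CPM in PKO-NF1 nerves against 206 CPM in PKO nerves; its part in the Prkar2a values was not tested. Prkar1a was also lower in the first pair and higher in the second, at -0.41 and 0.14, and the second turned with the length and GC trends removed. Akap12 went opposite ways in the pairs that differ in P2ry14, at 0.13 for PKO vs WT and -0.28 for PKO-NF1 vs NF1, and the value of -0.28 became 0.20 with those trends removed. Neither difference was tested.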

How the results depend on the processing

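Log2 ratios of the 9 genes were recomputed in 36 gene and comparison combinations. Of these 0 changed sign with DESeq2 size factors or without the muscle markers, 5 did with total counts only (largest shift 0.47) and 10 did with the length and GC trends removed (largest shift 0.58); no called gene changed sign. Filters of none or 5 CPM left the counts of called members as they were. In NF1 vs WT, total counts only gave 0 higher and 1 lower member, against 1106 and 1581 of 14673 genes. There the 1.5-fold threshold and removal of the trends each gave 1 lower, against 2391 and 651 of 14684 genes. The 1.5-fold threshold gave 1 higher and 1 lower in PKO-NF1 vs PKO, against 2252 and 3008 of 14684 genes. It gave 1 lower in PKO vs WT, against 2173, and 2 higher in PKO-NF1 vs NF1, against 2895. Total counts only gave 1 lower in PKO vs WT, against 2727 of 14673 genes, and moved the median of all genes there to -0.54. Without the NF1 library, a choice made after seeing the data, 0 of the 9 differed 2-fold between libraries.

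With the trends removed the log2 ratio of count ratios moved to 0.55 from 0.42 for type II to type I regulatory in NF1 vs WT. For Prkaca to Prkacb it moved to 0.24 from -0.05 in PKO-NF1 vs PKO, to -0.40 from -0.10 in PKO vs WT, and for catalytic to regulatory to 0.13 from -0.16 in PKO-NF1 vs PKO. The cause was not tested. Of the genes called in either direction, total counts only changed the share that was higher to 41.2% from 63.5% in NF1 vs WT, to 44.8% from 33.9% in PKO-NF1 vs PKO, to 21.6% from 66.7% in PKO vs WT and to 22.5% from 35.8% in PKO-NF1 vs NF1. In the additive model no setting called any of the 9; over all genes at the Nf1 term the calls were 0 with edgeR, 39 with no filter and 282 with the DESeq2 Wald test, and at the P2ry14 term 7, 88 and 723. No paired analysis was possible because each genotype has 1 library, and for the same reason no replicate could be left out of a group.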
